A study of Mus musculus with 6 samples.

Results

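The genes described here are 10 genes that act in bone mineral deposition, phosphate handling or osteocytes: Ibsp, Dmp1, Mepe, Sparc, Sost, Phex, Alpl, Phospho1, Ifitm5 and Enpp1. They were chosen by function, and 9 of them were among the 19938 genes tested. Enpp1 was not analysed here. Each of the 9 was read by 1 array feature, the only one that carries its symbol alone. RNA was measured on 6 Affymetrix whole-transcript arrays, 3 of Axin2+/GFP+ cells and 3 of Axin2-/GFP- cells from the calvarial suture mesenchyme, the fibrous tissue between the skull bones. All 6 samples came from postnatal day 28 mice of a mixed C57BL/6J, CD-1 and B6CBAF2 background that carried the Axin2rtTA and TRE-H2BGFP transgenes and received doxycycline from day 25 to day 28. In these mice the Axin2rtTA transgene makes an activator that, with doxycycline, switches on a histone-GFP fusion, so GFP serves as a reporter of recent Axin2 expression. Each sample pooled cells of 6 to 8 mice, freed with collagenase and sorted by GFP intensity.

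Bone hardens when calcium phosphate crystals form in a collagen matrix. Osteoblasts lay down that matrix together with acidic proteins that bind mineral, and enzymes on their surface and in matrix vesicles set the local balance between phosphate, which feeds crystals, and pyrophosphate, which blocks them. Cells that become buried in the matrix turn into osteocytes, which secrete the Wnt inhibitor sclerostin and proteins that regulate body phosphate.

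Of the 9 genes, 4 rose in Axin2+/GFP+ cells (Ibsp, Sparc, Sost and Dmp1), 0 fell and 5 did not pass, with a limma p under 0.05 after adjustment over all genes as the threshold. Of all genes tested 4.64% were higher and 11.4% lower by this rule, 16.0% in either direction, and of the olfactory and vomeronasal receptor genes described next 4.87% were higher. At an unadjusted p under 0.05, limma gave 5 of the 9 as higher and 1 as lower, against 16.3% and 17.6% of all genes. The methods' t-test gave 6 higher and 1 lower before adjustment, against 14.8% and 13.78% of all genes. After Benjamini-Hochberg adjustment it gave 0 of either, with only 211 higher and 518 lower among all 19938 genes. The median log2 change of the 9 genes was 0.52, against 0.14 over all genes tested. Of the 9 changes Ibsp had the highest and Alpl the lowest.

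Some facts of the arrays bear on all of these values. The upper quartile of the deposited log2 values was at most 3.76 in Axin2+/GFP+ and at least 3.97 in Axin2-/GFP- samples, so the arrays were not on one distribution. Dim features read higher in Axin2+/GFP+ samples: 1190 olfactory and vomeronasal receptor genes, which are known from the nose and not from bone, had a median log2 change of 0.30, while genes with a mean log2 value of 5 or more had a median of -0.57. The split of calls over all genes was 926 higher and 2265 lower, 459 and 2719 after median centring, and 210 and 3980 with the arrays centred on the receptor genes. Axin2 itself differed by 0.55 on the log2 scale (limma adjusted p = 0.0802), with no overlap between the groups. Markers of other cells also moved: 7 of 7 measured B lineage markers were lower and 9 of 9 neutrophil markers higher in Axin2+/GFP+ cells. In bulk samples such as these, a smaller share of cells of a type cannot be told apart from less RNA per cell.

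The promoters of the 4 genes that rose, and of Alpl, whose values lay the other way, are given here so that their sequences can be set beside the changes. Each line holds the 250 bases before the RefSeq transcription start, the outermost where RefSeq lists 2 (Alpl and Dmp1), in build GRCm38.p6, 5′ to 3′ on the gene's strand, with capitals at motif matches on either strand. The motifs matched in these windows were the TATA box, whose letters are TATAAA, and the box named after its letters CCAAT.
Ibsp, chr5:104299037-104299286, plus strand: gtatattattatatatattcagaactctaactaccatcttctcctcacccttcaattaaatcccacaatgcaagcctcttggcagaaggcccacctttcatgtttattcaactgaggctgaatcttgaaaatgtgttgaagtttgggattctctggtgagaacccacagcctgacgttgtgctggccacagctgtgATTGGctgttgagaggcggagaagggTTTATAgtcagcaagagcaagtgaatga
Dmp1, chr5:104197325-104197574, plus strand: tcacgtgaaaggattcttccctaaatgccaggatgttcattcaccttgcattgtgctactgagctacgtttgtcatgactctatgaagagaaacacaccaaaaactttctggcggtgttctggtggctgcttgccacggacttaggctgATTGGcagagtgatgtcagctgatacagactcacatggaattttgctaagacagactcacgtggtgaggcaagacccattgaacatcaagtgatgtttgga
Sost, chr11:101967016-101967265, minus strand: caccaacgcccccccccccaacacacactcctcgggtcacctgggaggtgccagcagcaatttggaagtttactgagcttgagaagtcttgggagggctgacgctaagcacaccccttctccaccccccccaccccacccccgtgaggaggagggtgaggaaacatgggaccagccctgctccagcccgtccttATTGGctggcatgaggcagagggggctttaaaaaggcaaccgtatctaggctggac
Sparc, chr11:55420081-55420330, minus strand: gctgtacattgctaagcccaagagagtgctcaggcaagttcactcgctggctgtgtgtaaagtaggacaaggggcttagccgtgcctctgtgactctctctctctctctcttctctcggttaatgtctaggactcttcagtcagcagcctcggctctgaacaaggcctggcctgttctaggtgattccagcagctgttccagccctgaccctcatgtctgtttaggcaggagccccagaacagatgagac
Alpl, chr4:137796385-137796634, minus strand: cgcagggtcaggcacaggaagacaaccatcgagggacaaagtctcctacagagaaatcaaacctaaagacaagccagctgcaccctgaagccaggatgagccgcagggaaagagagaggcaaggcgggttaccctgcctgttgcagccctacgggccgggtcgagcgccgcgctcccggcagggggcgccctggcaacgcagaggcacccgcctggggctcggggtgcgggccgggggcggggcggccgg

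The Ibsp window holds an inverted TATA box at -28 to -23 and an inverted CCAAT box at -54 to -50. Sost and Dmp1 each hold 1 inverted CCAAT box, at -56 to -52 and at -101 to -97, and the Sparc and Alpl windows hold none of the motifs searched. A CCAAT box on either strand is present in 33.8% of the 32851 promoter windows of this length and a TATA box in 12.4%. The RUNX core TGTGGT (14.05% of windows), AP-1 motif TGANTCA (6.75%), TCF/LEF core CTTTGA (13.83%) and homeodomain core TAATTA (4.84%) were also searched on both strands and matched in none of the 5 windows. The number of CpG dinucleotides in the window is 2 in Ibsp, 5 in Dmp1, 6 in Sost, 4 in Sparc and 20 in Alpl. Among the other genes that did not pass it is 2 in Mepe, 4 in Phex, 6 in Ifitm5 and 34 in Phospho1. Enpp1, which was not analysed, has 17, and the median over all windows is 6 (quartiles 2 and 16). These matches describe letters, and no array value bears on binding there.

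Ibsp encodes bone sialoprotein, an acidic matrix protein that nucleates mineral. Its log2 values were 5.66, 5.05 and 5.64 in Axin2+/GFP+ replicates 1, 2 and 3 and 3.68, 3.93 and 3.22 in Axin2-/GFP- replicates 1, 2 and 3. All Axin2+/GFP+ samples lay above all Axin2-/GFP- samples, with replicate 2 the lowest of the former. The means were 5.45 ± 0.35 and 3.61 ± 0.36 (SD, n = 3 each). The log2 change was 1.84 (standard error, SE, 0.25, 95% interval 1.28 to 2.40, limma adjusted p = 0.00211), which is a fold of 3.58. Of all genes tested 0.276% had a change at least as high. The call was kept in limma under each scaling of the arrays tried and with any 1 sample left out, and the log2 change ran from 1.52 with the arrays centred on the receptor genes to 2.20 after cyclic loess.

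Dmp1, dentin matrix protein 1, is made by osteocytes and late osteoblasts and restrains the phosphate hormone FGF23. It read 2.83, 2.11 and 2.78 on the log2 scale in Axin2+/GFP+ samples and 1.80, 1.56 and 1.72 in Axin2-/GFP- samples. The groups did not overlap, and Axin2+/GFP+ replicate 2 was again the lowest of its group. The log2 change was 0.88 (SE 0.23, 95% interval 0.37 to 1.39, limma adjusted p = 0.0323), a fold of 1.84. This call was the least firm of the 4: it ended with the arrays centred on their medians (0.77) or on the receptor genes (0.56) and after quantile normalization (0.71) or cyclic loess (0.62). It also ended without Axin2+/GFP+ replicate 1 (0.75) or 3 (0.78) and without Axin2-/GFP- replicate 1 (0.93), 2 (0.81) or 3 (0.89). The share of receptor genes that reached the level of Dmp1 was 12.8% in Axin2+/GFP+ and 34.2% in Axin2-/GFP- cells, and 3.11% had a change at least as high. Since features differ in how well their probes bind, such shares are only a guide to whether a gene is near the level of dim features.

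Mepe, matrix extracellular phosphoglycoprotein, is an osteocyte protein whose acidic peptide inhibits mineral growth. Its log2 values of 1.48, 1.40 and 1.39 in Axin2+/GFP+ samples all exceeded the 1.04, 1.17 and 0.97 of the Axin2-/GFP- samples. The log2 change of 0.36 (SE 0.16, 95% interval -0.00063 to 0.73, limma adjusted p = 0.148) did not pass the threshold. Both group means lay within the range of the receptor genes, 78.2% and 84.0% of which read higher or level, and 39.3% had a change at least as high. With the arrays centred on those genes the change was 0.043.

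Ibsp, Dmp1 and Mepe stand next to each other on mouse chromosome 5, where RefSeq lists the protein-coding genes Dspp, Dmp1, Ibsp, Mepe and Spp1 in a row. Ibsp and Dmp1 passed as higher in Axin2+/GFP+ cells. Mepe did not pass, although its Axin2+/GFP+ samples also lay above all Axin2-/GFP- samples. Dspp, which encodes dentin sialophosphoprotein of teeth, read 2.37, 2.54 and 3.03 in Axin2+/GFP+ samples and 2.16, 2.99 and 2.48 in Axin2-/GFP- samples, with overlap between the groups and a log2 change of 0.11 (95% interval -0.49 to 0.70, limma adjusted p = 0.785). Spp1 was not analysed here.

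Sparc, or osteonectin, is a collagen-binding glycoprotein abundant in bone and also made by endothelial cells and fibroblasts. It read 10.67, 10.86 and 10.20 on the log2 scale in Axin2+/GFP+ samples and 9.78, 9.08 and 9.31 in Axin2-/GFP- samples. The groups did not overlap, and Axin2+/GFP+ replicate 2, the lowest of its group for Ibsp and Dmp1, was here the highest. The log2 change was 1.19 (SE 0.25, 95% interval 0.63 to 1.75, limma adjusted p = 0.0140), a fold of 2.28. No receptor gene among 1190 was as bright in either population. Sparc no longer passed when Axin2-/GFP- replicate 2 (log2 change 1.03, adjusted p = 0.0574) or 3 (1.15, adjusted p = 0.0543) was left out. It was kept under all 4 other scalings, at changes from 0.87 with the arrays centred on the receptor genes to 1.81 after cyclic loess.

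**Figure D1:**
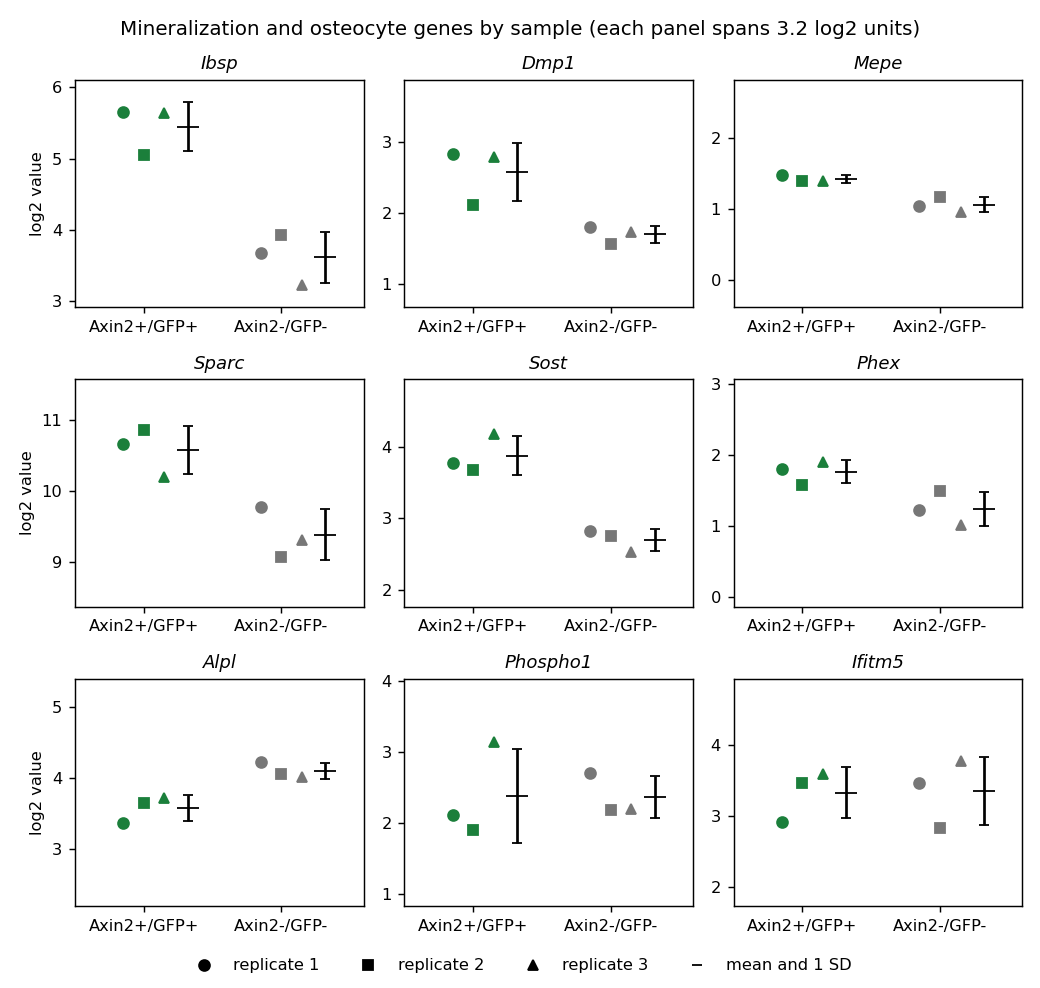
Log2 array values on the vertical axis are shown for the 9 genes in the Axin2+/GFP+ (green) and Axin2-/GFP- (grey) samples, with 1 symbol per replicate and a black bar and whiskers for the mean and 1 SD (n = 3). The 2 populations do not overlap for Ibsp, Dmp1, Mepe, Sparc, Sost, Phex and Alpl, and Alpl is the one of these that is lower in Axin2+/GFP+ samples.

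Sost encodes sclerostin, the Wnt inhibitor secreted by osteocytes. The log2 values were 3.78, 3.68 and 4.19 in Axin2+/GFP+ samples and 2.82, 2.75 and 2.53 in Axin2-/GFP- samples. The groups were apart, with Axin2+/GFP+ replicate 3 the highest. The log2 change was 1.18 (SE 0.20, 95% interval 0.74 to 1.63, limma adjusted p = 0.00542), a fold of 2.27. In limma the call was kept under every scaling tried, down to a log2 change of 0.86 with the arrays centred on the receptor genes, and without any 1 sample. Sost was above most receptor genes, 0.840% of which were as bright in Axin2+/GFP+ and 5.46% in Axin2-/GFP- cells.

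Phex, an endopeptidase of osteoblasts and osteocytes whose loss causes X-linked phosphate wasting, had log2 values of 1.80, 1.58 and 1.90 in Axin2+/GFP+ and 1.22, 1.49 and 1.02 in Axin2-/GFP- samples. The groups came close, at replicate 2 of each, but did not overlap. The log2 change of 0.52 (SE 0.19, 95% interval 0.087 to 0.95, limma adjusted p = 0.0961) did not pass. It was 0.20 with the arrays centred on the receptor genes, 52.8% and 68.7% of which reached the level of Phex in the respective populations.

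Alpl encodes tissue-nonspecific alkaline phosphatase, which splits pyrophosphate and is the classic enzyme of mineralizing osteoblasts. Its log2 values were 3.37, 3.65 and 3.72 in Axin2+/GFP+ samples and 4.23, 4.05 and 4.02 in Axin2-/GFP- samples. Every Axin2+/GFP+ sample lay below every Axin2-/GFP- sample, the opposite order to Ibsp, Sparc, Sost and Dmp1. The log2 change was -0.52 (SE 0.17, 95% interval -0.92 to -0.13) and missed the threshold (limma adjusted p = 0.0739). It passed after median centring (-0.63, adjusted p = 0.0371) and with the arrays centred on the receptor genes (-0.84, adjusted p = 0.0108), and was smaller after quantile normalization (-0.30) and cyclic loess (-0.32). Of all genes tested 18.4% had a change at least as low.

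The size of the contrast between Alpl and the 4 genes that rose can be given as a log2 ratio within each array, which recentring the array does not move. The pairs were chosen after their values were seen. The log2 ratio of Ibsp to Alpl was 2.28, 1.40 and 1.92 in Axin2+/GFP+ and -0.55, -0.13 and -0.80 in Axin2-/GFP- samples, a difference of 2.36 between the groups. The difference was 1.71 for Sparc over Alpl, 1.70 for Sost over Alpl and 1.40 for Dmp1 over Alpl. That the groups do not overlap in these 4 ratios follows from the order of the samples in each gene, so the ratios are a description with no test. Set against Col1a1, the main collagen chain of bone, the same genes gave smaller differences in the values as deposited. The log2 ratio to Col1a1 differed by 0.18 for Ibsp, -0.48 for Sost, -0.47 for Sparc and -0.78 for Dmp1, and only for Dmp1, of these 4, were the groups apart. Dmp1 was near the level of dim features in Axin2-/GFP- cells, where 34.2% of receptor genes reached it. For Alpl the ratio to Col1a1 differed by -2.18, also with the groups apart. Scalings that depend on signal do move these ratios. After cyclic loess the log2 change was 2.28 for Col1a1, 0.62 for Dmp1 and -0.32 for Alpl, against 1.66, 0.88 and -0.52 as deposited.

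Phospho1, a phosphatase that releases phosphate inside matrix vesicles and is also abundant in red cell precursors, overlapped between the populations. Its log2 values were 2.11, 1.90 and 3.14 in Axin2+/GFP+ and 2.71, 2.19 and 2.20 in Axin2-/GFP- samples, with Axin2+/GFP+ replicate 3 above the other 5. The log2 change of 0.017 (95% interval -0.72 to 0.75, limma adjusted p = 0.972) turned negative under all 4 other scalings, and was -0.36 without Axin2+/GFP+ replicate 3. The summed linear value of 5 measured erythroid markers was 117, 127 and 110 in Axin2+/GFP+ replicates 1, 2 and 3 and 212, 182 and 81.7 in the same replicates of Axin2-/GFP- cells. These markers were mixed: Alas2 was lower (log2 change -1.68) and Klf1 higher (0.74). The list's median log2 change was 0.25, with 3 changes above 0 and 2 below. The part of erythroid cells in the Phospho1 values was not tested.

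Ifitm5, a small membrane protein of mineralizing osteoblasts, had log2 values of 2.91, 3.46 and 3.59 in Axin2+/GFP+ and 3.45, 2.82 and 3.77 in Axin2-/GFP- samples. The groups overlapped over nearly their whole range. The log2 change was -0.026 (95% interval -0.66 to 0.61, limma adjusted p = 0.952), and 0.057 after quantile normalization. The wide intervals of Phospho1 and Ifitm5 do not show that these genes were equal in the populations.

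Groups that do not overlap were common in these arrays. Among the 9 genes 6 had all Axin2+/GFP+ samples above all Axin2-/GFP- samples, against 23.1% of all genes and 31.6% of the receptor genes, and 1 had them all below, against 17.8% of all genes. Within the Axin2+/GFP+ group, replicate 2 was the lowest for 5 of the 9 genes (Ibsp, Phospho1, Phex, Dmp1 and Sost) and the highest for Sparc, while replicate 3 was the highest for 5 (Alpl, Phospho1, Ifitm5, Phex and Sost). Within the Axin2-/GFP- group, replicate 1 was the highest for 5 of the 9 and the lowest for 0.

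**Figure D2:**
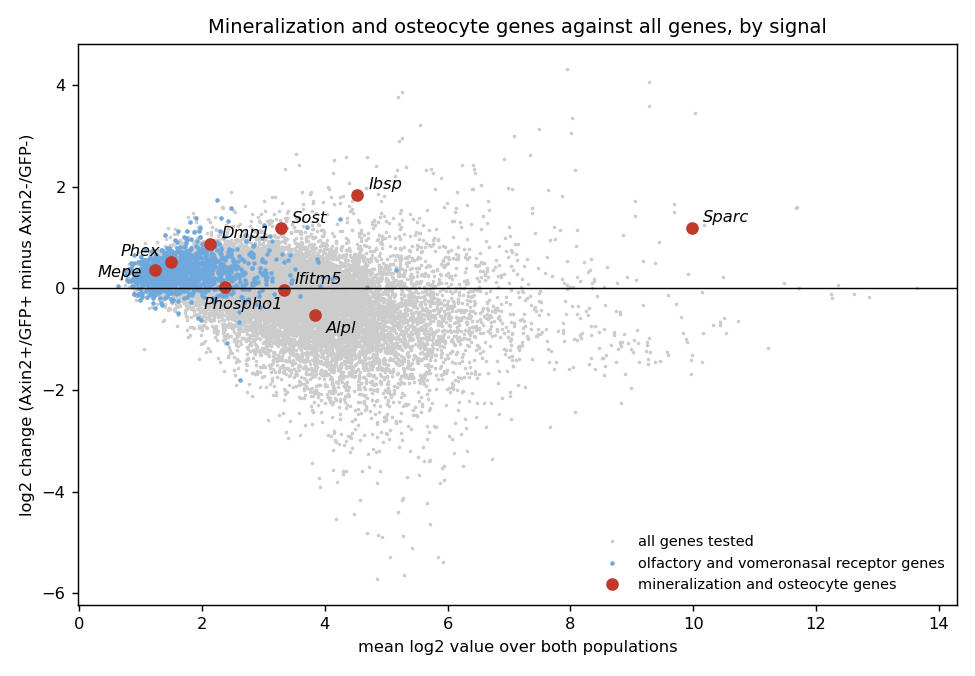
Each point is a gene, placed by its mean log2 value over both populations (horizontal axis) and its log2 change, Axin2+/GFP+ minus Axin2-/GFP- (vertical axis), with grey points for all 19938 genes, blue points for the 1190 receptor genes and red points for the 9 genes described. Mepe, Phex, Phospho1 and Dmp1 lie at signals where the receptor genes are dense, and Sparc lies far to the right of them.

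Of 22 other measured genes of mineralization, phosphate handling and osteocytes, 1 was higher, 0 were lower and 21 did not pass in limma (3 higher and 1 lower at an unadjusted p under 0.05). Of all genes tested 4.64% were higher and 11.4% lower after adjustment, and 16.3% and 17.6% before it. The median log2 change of the 22 genes was 0.31, against 0.14 over all genes and 0.30 over the receptor genes. The gene that rose was Pth1r, the receptor for parathyroid hormone on osteoblasts and osteocytes. It read 3.48, 3.75 and 3.70 in Axin2+/GFP+ and 2.69, 2.87 and 2.97 in Axin2-/GFP- samples, a log2 change of 0.80 (SE 0.17, limma adjusted p = 0.0167) with no overlap. It no longer passed when Axin2-/GFP- replicate 1 (0.72) or 2 (0.81) was left out, or with the arrays centred on the receptor genes (0.48).

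The 4 other genes of this list with the smallest p did not pass. Slc20a1, a phosphate importer, had a log2 change of -0.52 (95% interval -0.90 to -0.13, limma adjusted p = 0.0728), and no sample of either group overlapped with the other. It passed as lower after median centring (-0.63) and with the arrays centred on the receptor genes (-0.84), and was -0.061 after quantile normalization. Car3, a carbonic anhydrase, had a log2 change of 0.53 (adjusted p = 0.0939). Abcc6, a transporter whose loss leads to ectopic mineral, had one of 0.50 (adjusted p = 0.145) and Galnt3, which glycosylates FGF23, one of 0.47 (adjusted p = 0.170).

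Osteoblast commitment genes gave 3 higher, 0 lower and 9 that did not pass of 12 measured in limma (4 higher and 0 lower before adjustment). The shares of all genes were 4.64% higher and 11.4% lower (16.3% and 17.6% before adjustment). The median log2 change of the 12 genes was 0.33, close to the 0.30 of the receptor genes. Col1a2 and Col1a1, the chains of type I collagen, rose by log2 changes of 1.72 (limma adjusted p = 0.00139) and 1.66 (adjusted p = 0.00286). Col1a1 read 10.34, 10.83 and 10.37 in Axin2+/GFP+ and 8.998, 8.437 and 9.137 in Axin2-/GFP- samples. Dlx5, a homeodomain factor of osteoblast differentiation, rose by 0.99 (SE 0.23, limma adjusted p = 0.0237), with log2 values of 4.995, 5.561 and 4.713 in Axin2+/GFP+ and 4.251, 4.043 and 4.001 in Axin2-/GFP- samples. That call ended without any 1 Axin2-/GFP- replicate (1.07, 0.96 and 0.94 without replicates 1, 2 and 3) and with the arrays centred on the receptor genes (0.67). Dlx3 had a log2 change of 0.43 (adjusted p = 0.107), Cdh11 of 0.52 (adjusted p = 0.327), Dlx6 of 0.35 (adjusted p = 0.262) and Msx2 of 0.29 (adjusted p = 0.294). The change of Msx2 was -0.028 with the arrays centred on the receptor genes. Sp7, the osteoblast factor Osterix, had a log2 change of 0.26 (95% interval -0.17 to 0.69), named after its values were seen.

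**Figure D3:**
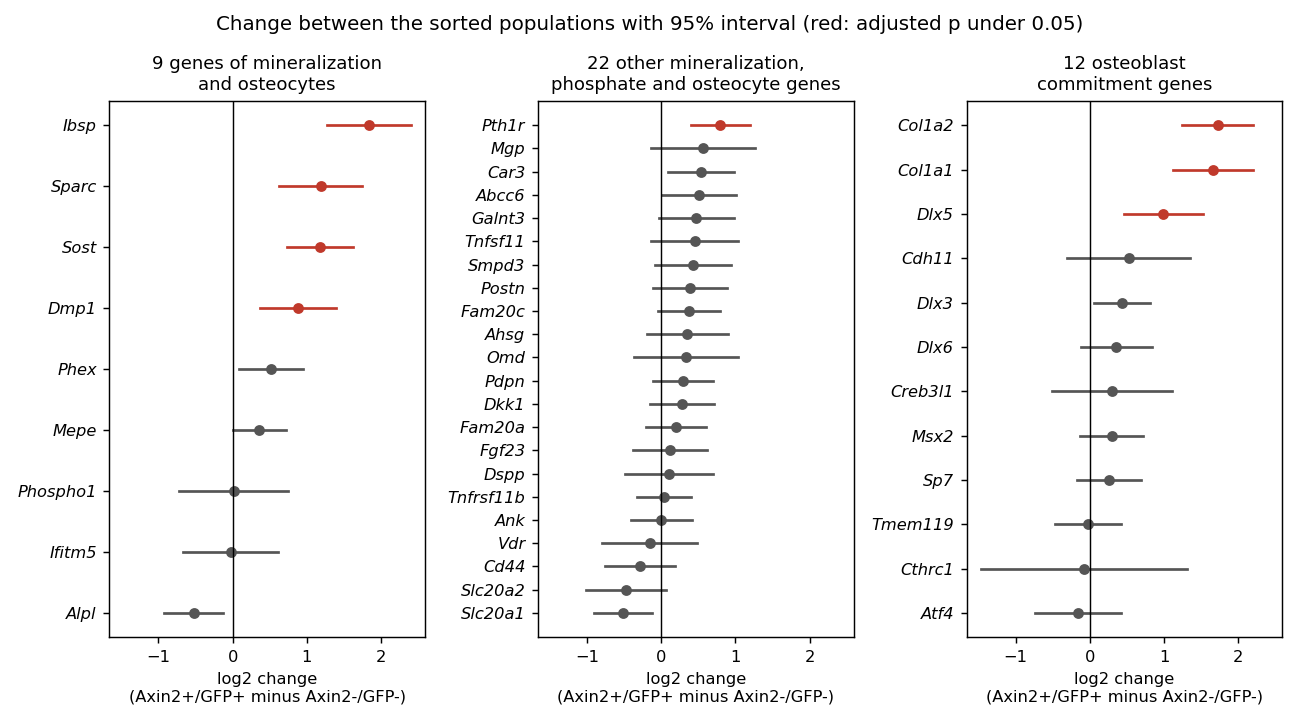
The log2 change between Axin2+/GFP+ and Axin2-/GFP- cells on the horizontal axis is shown for the 9 genes described, 22 other mineralization, phosphate and osteocyte genes and 12 osteoblast commitment genes, with points for the estimate, lines for the 95% interval from limma and red for an adjusted p under 0.05. The 4 genes in red in the left panel are Ibsp, Sparc, Sost and Dmp1, and the intervals of Phospho1 and Ifitm5 are centred near 0.

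Markers of other cells stood beside these values as follows. The summed linear value of 9 neutrophil markers was 17878 to 20158 in Axin2+/GFP+ and 2756 to 8465 in Axin2-/GFP- samples, and S100a8, S100a9 and Ngp had the highest mean log2 values of the list. That of 7 B lineage markers was 53.7 to 63.8 and 1147 to 1462, and Cd79b, Vpreb1 and Rag1 had the highest mean log2 values over the 6 samples. For comparison, the 9 genes described summed to 1295 to 1940 and 599 to 942, most of it from Sparc. The part of these cells in the changes of the 9 genes was not tested.

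Fewer genes of the other marker lists passed. Of 8 osteoclast markers, 0 passed in limma (1 higher and 1 lower at an unadjusted p under 0.05), and their sums of 67.9 to 107 and 63.6 to 77.0 overlapped between the populations. Of 6 chondrocyte markers 1 was higher, Col2a1, the collagen of cartilage, at 0.94 on the log2 scale (limma adjusted p = 0.0226), while Sox9, their master regulator, differed by 0.35 and did not pass. Of 6 endothelial markers 1 was lower, Pecam1, which blood cells also express, by a log2 change of -2.23 (limma adjusted p = 0.00119), and 0 were higher. Their sum was 32.4 to 38.9 in Axin2+/GFP+ against 61.6 to 84.1 in Axin2-/GFP- samples, but the list's median log2 change was 0.11, with 4 of the 6 changes above 0. Of 6 fibroblast and tendon markers 2 were higher, against 4.64% of all genes. These were Mkx at 0.84 (limma adjusted p = 0.0345) and Dpt, named after its values were seen, at 0.84 (adjusted p = 0.0205). Tnmd (0.37, limma adjusted p = 0.725) and Pi16 (0.83, adjusted p = 0.109) did not pass. The list's median log2 change was 0.75, against 0.14 over all genes. All 6 changes were above 0, with 4 at an unadjusted limma p under 0.05.

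The remaining blood cell lists were mixed, although several of their sums were lower. Macrophage markers summed to 49.6 to 58.9 in Axin2+/GFP+ and 86.2 to 92.9 in Axin2-/GFP- samples, with 1 of 6 lower (Cd68). Cd68 had a log2 change of -1.49, while the list's median was -0.24, with 2 of the 6 changes above 0. Plasma cell markers summed to 46.6 to 56.4 and 146 to 175, with 1 of 6 lower (Irf4, which B cells also express). Irf4 had a log2 change of -4.45, while the list's median was -0.27, with 2 of the 6 changes above 0. Megakaryocyte and platelet markers summed to 41.7 to 68.7 and 86.5 to 182, with 1 of 5 lower (Pf4). Pf4 had a log2 change of -2.57, while the list's median was -0.17, with 1 of the 5 changes above 0. Of the 5 erythroid markers 1 was higher (Klf1) and 1 lower (Alas2).

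**Figure D4:**
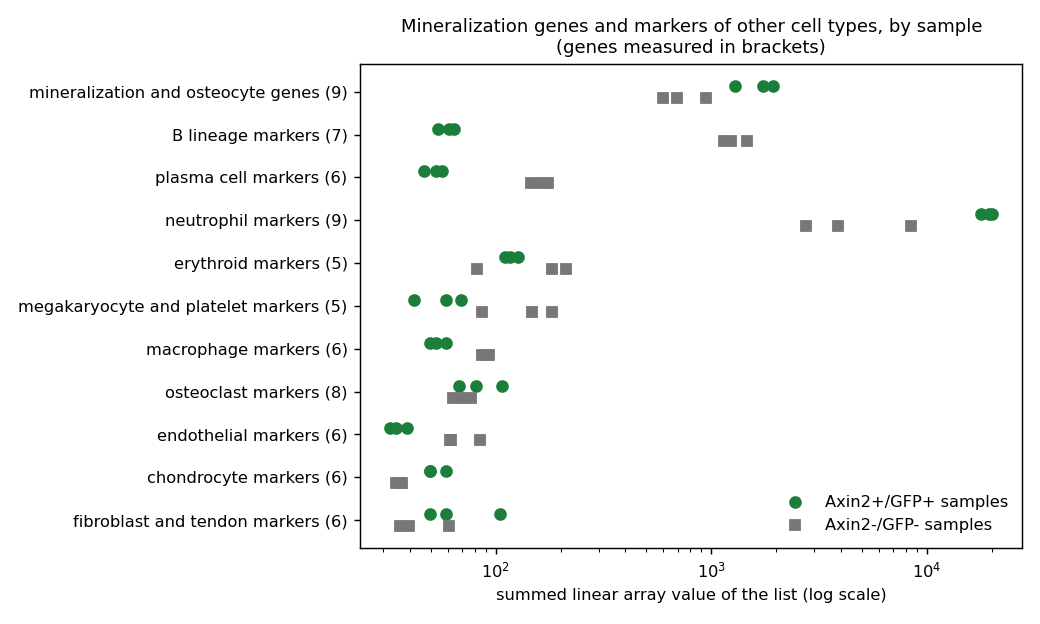
Each row is a gene list, with the number of measured genes in brackets, and each point is 1 sample's sum of linear array values on a log axis, as green circles for Axin2+/GFP+ and grey squares for Axin2-/GFP- samples. The summed mineralization and osteocyte genes and the summed neutrophil markers are higher in all Axin2+/GFP+ samples, and the B lineage markers are lower in all of them.

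For each of the 4 genes that rose, the genes with the most similar profile were taken as those with the smallest root mean square difference of mean-centred log2 values over the 6 samples, as a description. For Ibsp these were Olr1 (0.16), Mpo (0.19) and Itgb2l (0.22), of which Mpo is the myeloperoxidase of neutrophil granules. For Sparc they were Lilr4b (0.14), Klf5 (0.15) and Slc2a3 (0.16), for Dmp1 Gm6116 (0.098), Prkar2a (0.0996) and the olfactory receptor gene Olfr166 (0.11), and for Sost Tuba8 (0.090), Olfr1188 (0.10) and Ero1a (0.11). With 2 groups of 3, many genes share a profile of this kind.

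**Figure D5:**
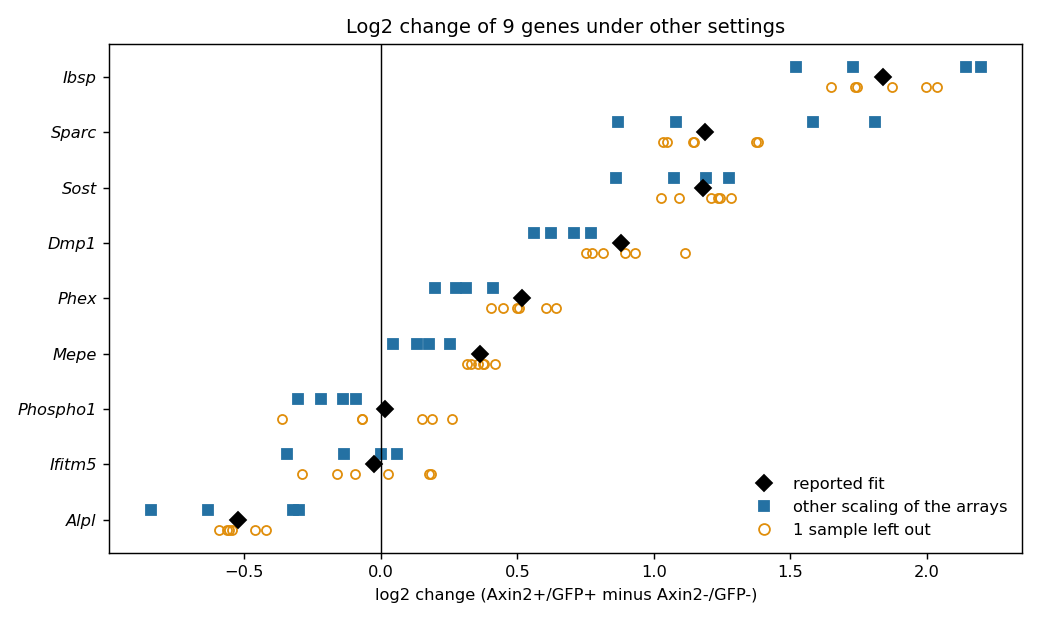
The log2 change of each of the 9 genes on the horizontal axis is shown in the reported fit (black diamond), with the arrays rescaled in 4 ways, by centring on medians or on receptor genes, by quantiles or by cyclic loess (blue squares) and with each of the 6 samples left out in turn (orange circles). Ibsp, Sparc, Sost, Dmp1, Phex and Mepe stay above 0 throughout and Alpl below it, while Phospho1 and Ifitm5 fall on both sides.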

How the data were processed

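The authors deposited log2 expression values for 35557 array features in 6 samples. RMA and R 3.2.1 are named per the labels, and further settings are not given in sources used here. The values were used as deposited, with 0 columns unmatched. Through the platform's probe annotation 21789 features carry 1 symbol, 1621 several and 12147 none, and 19938 genes were read, each from its brightest feature by mean. Array values carry no depth, and 3 arrays a group bound the precision.

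Axin2+/GFP+ and Axin2-/GFP- samples were compared with limma 3.58.1 in R 4.3.3 (lmFit, eBayes), with Benjamini-Hochberg adjustment over all genes and a threshold of 0.05. P-values set the difference between groups against the spread between pooled samples, and the spread between single mice is not measured. The genes, lists and alternatives were chosen with earlier results of these data known. The text names the 9 measured genes, called genes of the 2 related lists with up to 4 more of each by smallest p, up to 3 genes of each marker list by mean level, and 3 genes nearest in profile. Of 26 and 14 genes on the related lists 22 and 12 were measured, Ankh as Ank, its symbol in the probe table. Tried in addition were a mean-variance trend in limma, the methods' t-test, a replicate block, median centring, centring on receptor genes, quantile normalization, cyclic loess, removal of dim genes, averaging of features, a fit over every feature and omission of each sample. The fit was tested on simulated data. Promoter sequences came from RefSeq and matched 10 of 10 genes.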

Additional observations from a re-analysis of the deposited data

How the results depend on the processing

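The calls of Ibsp (log2 change 1.84) and Sost (1.18) ended in the methods' t-test and in no other of 16 alternatives, as did those of Sparc (1.19) and Dmp1 (0.88) in that test. The Dmp1 call also ended under cyclic loess (0.62), median centring (0.77), centring on receptor genes (0.56), quantile normalization (0.71) and a fit to every feature (0.88). Alpl passed as lower under median centring (-0.63) and centring on receptor genes (-0.84). Phospho1 turned negative under cyclic loess (-0.22), median centring (-0.092), centring on receptor genes (-0.30) and quantile normalization (-0.14), Ifitm5 positive under quantile normalization (0.057), and Msx2 negative when centred on receptor genes (-0.028). With 1 sample left out, the log2 change ran from 1.65 to 2.04 for Ibsp, 1.03 to 1.38 for Sparc, 1.03 to 1.28 for Sost, 0.75 to 1.11 for Dmp1, -0.59 to -0.42 for Alpl, -0.36 to 0.26 for Phospho1, -0.29 to 0.18 for Ifitm5, 0.40 to 0.64 for Phex and 0.31 to 0.42 for Mepe. Of the 9 genes 4 were higher in the reported fit, 0 in the t-test and 2 to 4 with 1 sample left out, with 2 without Axin2-/GFP- replicate 2 or 3. The number lower was 1 under median centring and under centring on receptor genes. Of the other mineralization genes the number higher was 0 in the t-test and when centred on receptor genes, 2 after quantile normalization and cyclic loess, and 0 to 2 with 1 sample left out, and the number lower was 1 under median centring and 2 when centred on receptor genes. Osteoblast genes gave 1 higher in the t-test. The median of the 9 genes was 0.27 after cyclic loess, 0.20 when centred on receptor genes, 1.18 over the 5 genes kept by the filter on dim genes and 0.40 to 0.64 with 1 sample left out. The cause of these shifts was not tested.

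Over all genes 926 were higher and 2265 lower, 211 and 518 in the t-test, 768 and 1266 after quantile normalization, 785 and 1468 after cyclic loess, 513 and 2298 among 9969 genes after the filter on dim genes, 335 and 1467 in the fit to every feature, and 288 and 1376, 260 and 1456, and 239 and 1403 without Axin2-/GFP- replicate 1, 2 or 3. The median change of all genes was 0.14 as deposited, 0.033 under median centring, 0.011 after cyclic loess and -0.18 when centred on receptor genes. With the replicate number as a block the calls of the 9 genes were the same 4, with the log2 change of Ibsp at 1.84, and 643 genes were higher and 2201 lower overall. Deviations of same-numbered samples correlated at 0.031, 0.011 and 0.053 across genes for replicates 1, 2 and 3. Axin2+/GFP+ replicates 1 and 3 correlated best with the Axin2-/GFP- sample of the same number. Axin2+/GFP+ replicate 2 correlated best with Axin2-/GFP- replicate 1 (0.017). Correlations this small do not settle whether the numbers pair the samples.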
